A study of Mus musculus with 10 samples.

Results

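Ras-MAPK signalling runs from receptor tyrosine kinases through Ras and the kinases Raf, MEK and ERK to transcription factors, and it restrains itself through genes that it switches on. Dual-specificity phosphatases take the phosphates off ERK, Sprouty proteins act between the receptor and Raf, and the ETS factors Etv4 and Etv5, the AP-1 subunit Fosl1 and the growth regulator Myc carry the signal into transcription. In cells with an activated Ras, such genes are read as a record of pathway output. The 10 genes described here are 3 ERK phosphatases (Dusp4, Dusp5 and Dusp6), 3 Sprouty inhibitors (Spry1, Spry2 and Spry4), the ETS factors Etv4 and Etv5, and Fosl1 and Myc. They were taken by name from 21938 protein-coding genes of GENCODE vM21, and each was given a window of its body plus 50 kb on each side in mm10.

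Chromatin immunoprecipitation with sequencing was done in AB17 cells, an immortalized hepatocyte line from a C57BL/6 mouse whose Arid1a alleles were both floxed (Arid1a fl/fl). All groups carried SV40 large T antigen and an activated H-Ras from a pLPC vector. Ad-GFP infection gave the wildtype (WT) cells and Ad-Cre infection the Arid1a knockout (KO) cells. H3K9me3 and H3K27me3 were profiled in both genotypes, and Arid1a, Brg1, Ctcf and Rad21 in WT cells, each group being 1 library from 1 cell line, so differences stand without replicates and without p-values. Arid1a is the DNA-binding subunit of the BAF form of SWI/SNF and Brg1 its ATPase, Ctcf marks loop anchors and Rad21 is the cohesin subunit that gathers there. H3K9me3 and H3K27me3 mark heterochromatin and Polycomb-silenced chromatin.

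The 8 lists held between 70408 (Arid1a) and 143835 (WT H3K9me3) summits, the highest point of each called peak, with a −log10 q-value that ranks peaks within a library and is not comparable between libraries. Read depth is unknown from the lists, and all intervals cover counting error only. KO cells had 134976 H3K9me3 summits against 143835 in WT, and 86050 H3K27me3 summits against 109601. Fewer cells with a mark and less of the mark per cell cannot be told apart. Of the 7 hepatocyte markers, Brg1 lay within 2 kb of the start at 3 (Cebpa, Krt8 and Ttr), against 39.6% of coding genes. Arid1a lay there at 2 (Cebpa and Krt8), against 35.2%. Alb, Apoa1, Hnf4a and Krt18 had neither Brg1 nor Arid1a there. The hepatocyte transcription factors Hnf4a and Cebpa had H3K27me3 summits at their starts in WT cells, and the other hepatocyte markers had none (2 of 7, against 23.4% of coding genes). The mark also stood at the starts of 2 of 3 endothelial (Cdh5 and Kdr), 1 of 3 mesenchymal (Des) and 0 of 3 leukocyte markers. Brg1 lay at the start of 1 of 3 endothelial, 1 of 3 leukocyte and 3 of 3 mesenchymal markers. Arid1a lay at 1 of 3, 2 of 3 and 1 of 3 in the same order. Arid1a was not profiled in KO cells, so the deletion is not checked by these lists.

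The starts of the Ras-MAPK target and feedback genes carried factors in nearly every case. Within 2 kb of the outermost annotated start, 10 of 10 genes had a Brg1 summit (39.6% of all coding genes), 9 of 10 an Arid1a summit (35.2% of all coding genes), 10 of 10 a Ctcf summit (42.5%) and 10 of 10 a Rad21 summit (50.6%). All 4 factors met at 9 of 10 starts, against 16.6% of coding starts, and the exception was Spry1, whose only Arid1a summit lay 49170 bp downstream. Many of these summits were weak. With summits of −log10 q of at least 3 only, Brg1 stood at 5 of 10 starts (24.5% of all coding genes) and Arid1a at 7 of 10 (19.7%).

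**Figure D1:**
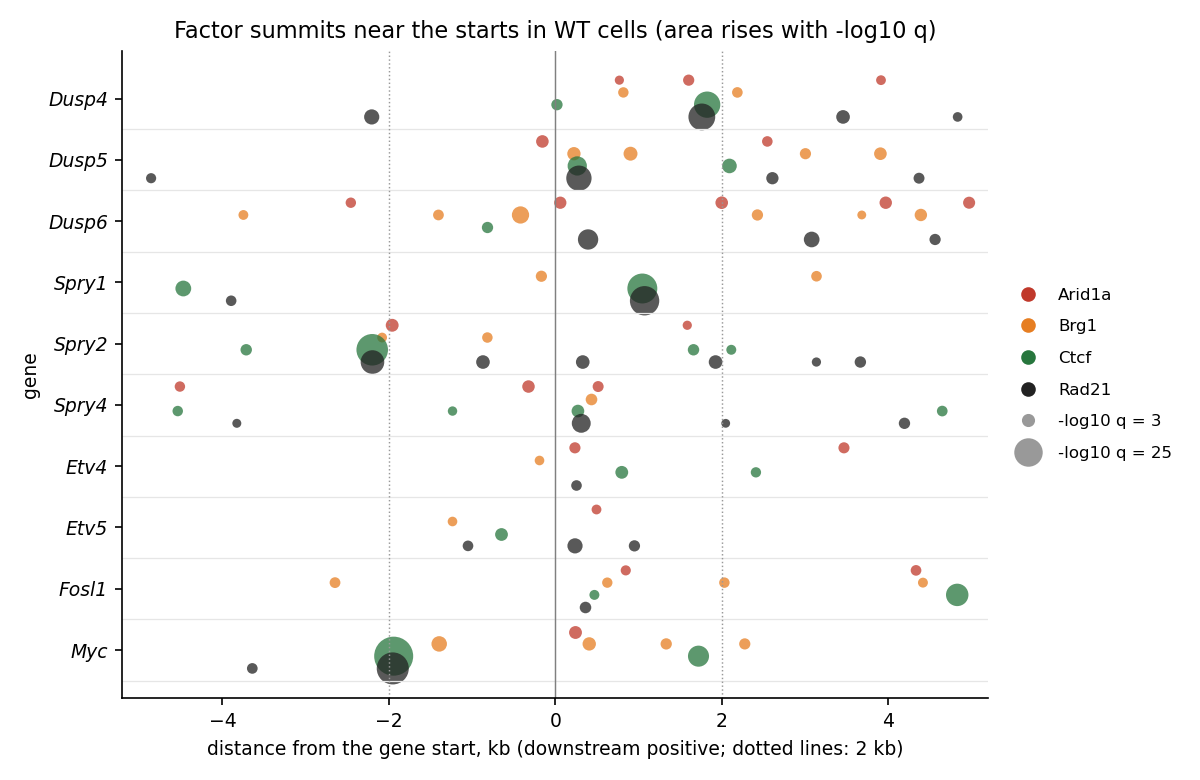
Each point is a summit of Arid1a, Brg1, Ctcf or Rad21 in WT cells, placed by its distance in kb from the start of the gene named on the vertical axis, with an area that rises with −log10 q and dotted lines at 2 kb. Only summits within 5 kb of a start are drawn. In that range, paired Ctcf and Rad21 points of high strength stand at Dusp4, Dusp5, Spry1, Spry2 and Myc, and the strongest Brg1 points at Dusp6 and Myc. Stronger Ctcf sites of Etv4, Dusp5 and Fosl1 lie farther out.

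Counted over the 10 windows together, summits were densest at the starts for all 4 factors. Brg1 had 35.0 summits per 100 kb within 2 kb of the starts, 9.0 in the rest of the bodies, 5.83 in the upstream flanks and 11.6 in the downstream flanks. Arid1a had 30.0, 7.36, 4.17 and 9.6 per 100 kb in the same order. The whole windows held 111 Brg1 and 89 Arid1a summits. A median member window had 8.5 Brg1 summits against 5 over all coding genes, 7 Arid1a summits against 5, 18 Rad21 summits against 9 and 7 Ctcf summits against 9. Ctcf was therefore the 1 factor whose median was lower here than over all genes.

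**Figure D2:**
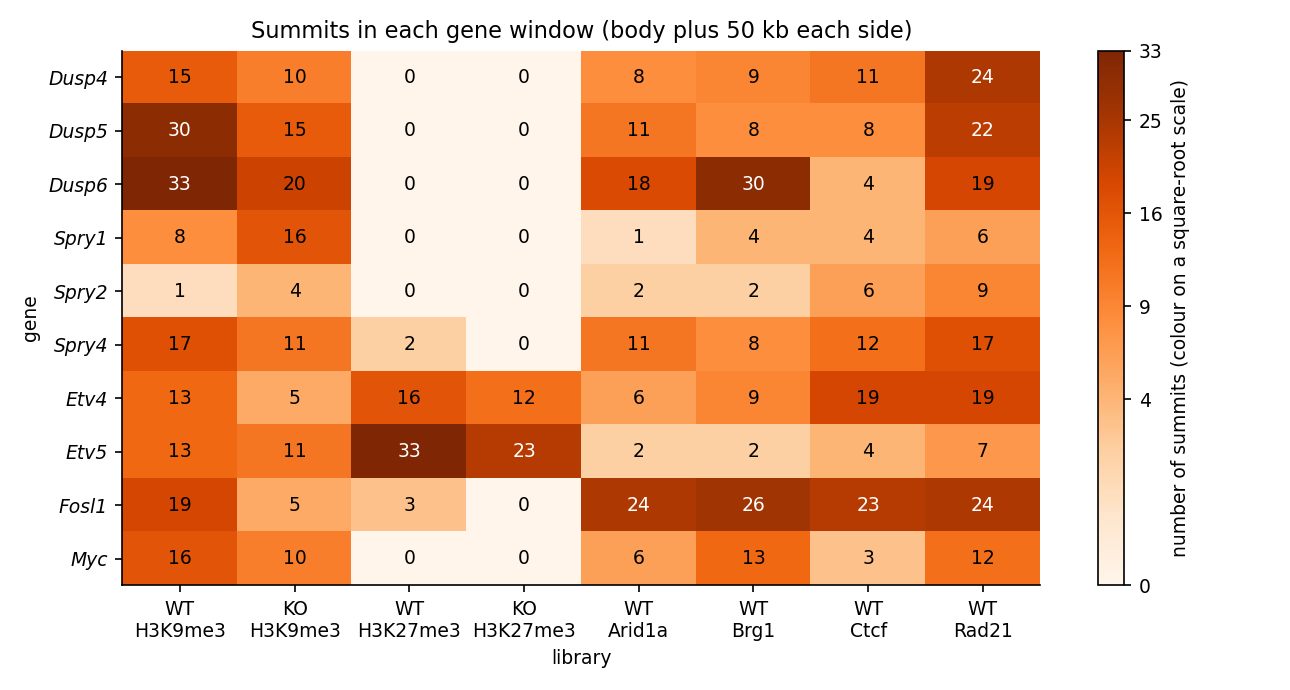
Each cell gives the number of summits of 1 library (columns) in the window of 1 gene (rows), body plus 50 kb on each side, with colour on a square-root scale. Fosl1 and Dusp6 hold the most Brg1 summits, 26 and 30, Spry1, Spry2 and Etv5 the fewest, 4, 2 and 2, and H3K27me3 stands almost entirely at Etv4 and Etv5.

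The genes differed widely. Brg1 summits ranged from 2 (Spry2 and Etv5) to 30 (Dusp6) per window and Arid1a summits from 1 (Spry1) to 24 (Fosl1). The Fosl1 window is dense in other genes, and its strongest Brg1 and Ctcf summits lay nearest the starts of Cfl1 and Mus81. The other windows span 104 to 116 kb, but that of Etv5 spans 158 kb, so its 2 Brg1, 2 Arid1a, 4 Ctcf and 7 Rad21 summits were also few per length.

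Among the ERK phosphatases, Dusp6, which acts on ERK in the cytoplasm, had the strongest Brg1 site of the set. Dusp6 (chr10:99263231-99267489, plus strand) had a Brg1 summit 417 bp upstream of its start with a −log10 q of 9.78, a strength reached by 0.161% of all Brg1 summits. An Arid1a summit lay 61 bp downstream of the start (4.13) and a Rad21 summit 395 bp downstream (14.19), both in an exon. Ctcf was weak throughout this window, with 4 summits and none above 4.51. The Brg1 site is shown because it leads the set, with the summit base in capitals, at chr10:99262784-99262844 on the plus strand of GRCm38.
Dusp6 Brg1 summit: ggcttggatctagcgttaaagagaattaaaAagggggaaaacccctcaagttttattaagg

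Dusp5, a nuclear phosphatase that binds ERK, had all 4 factors close around its start (chr19:53529109-53542431, plus strand). Arid1a had a summit 154 bp upstream (−log10 q of 4.41), which falls in an exon of the overlapping gene AC137853.2. Brg1 had summits 225 and 905 bp downstream (5.14 and 5.79), and Ctcf and Rad21 lay together 265 and 285 bp downstream (12.6 and 22.94). ChIP reads carry no strand of transcription, so these summits cannot be assigned to Dusp5 or to AC137853.2. RefSeq promoters of 5 of the 10 genes (Dusp5, Dusp6, Spry1, Spry2 and Etv5) were used here, and the 250 bases before the start were searched on both strands for AP-1 (TGANTCA), ETS (CCGGAAG), E-box (CACGTG) and CRE (TGACGTCA) letters and for the CArG box, which serum response factor binds. The Dusp5 promoter was the only 1 of the 5 with any match, and it held 2 CArG boxes end to end. Of 32817 RefSeq promoters, 1.47% held a CArG box and 0.0183% held 2 or more, while AP-1 letters stood in 6.75%, ETS in 6.9%, E-box in 6.02% and CRE in 1.55%. The stretch is chr19:53529043-53529102 on the plus strand (GRCm38.p6), with the boxes in capitals.
Dusp5 promoter: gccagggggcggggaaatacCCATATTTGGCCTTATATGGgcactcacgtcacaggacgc

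Dusp4, an inducible nuclear phosphatase (chr8:34807297-34819894, plus strand), stood out for Ctcf and cohesin inside the gene. A Ctcf summit 9020 bp downstream of the start, in an intron, reached a −log10 q of 56.77, and Rad21 lay 22 bp from it at 39.07. A further pair lay in an intron 1826 bp (Ctcf, 24.93) and 1762 bp (Rad21, 25.92) from the start. Brg1 at the Dusp4 start was weak, 2.51 at 819 bp, and the 2 Arid1a summits there had values of 1.57 and 3.17. The window had 24 Rad21 summits against 11 of Ctcf.

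The Sprouty genes had few SWI/SNF summits apart from Spry4. Spry1 (chr3:37639947-37644598, plus strand) had 4 Brg1 and 1 Arid1a summits, Spry2 (chr14:105891947-105896819, minus strand) had 2 and 2, and Spry4 (chr18:38586247-38601415, minus strand) had 8 and 11. At Spry1 a Brg1 summit lay 166 bp upstream of the start (−log10 q of 3.16), and Ctcf and Rad21 lay 1047 and 1074 bp downstream, in an intron, at 32.74 and 31.46. At Spry2 the pair of Ctcf and Rad21 lay 2199 and 2196 bp upstream, at 36.53 and 19.76, with an Arid1a summit 1959 bp and a Brg1 summit 2080 bp upstream beside it. Spry4 lacked a strong Ctcf site, its highest value in the window being 6.22, and its Rad21 summit 313 bp downstream of the start reached 12.07. Thus Spry1 and Spry2 shared a strong Ctcf and cohesin site about their starts, which Spry4 did not have.

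Etv4 and Etv5 encode related ETS activators and were unlike in their factors. Etv4 (chr11:101769742-101785371, minus strand) had 19 Ctcf and 19 Rad21 summits, and Etv5 (chr16:22381309-22439719, minus strand) had 4 and 7. The Etv4 body lay between strong Ctcf sites. The upstream site was 28090 bp from the start (80.02, Rad21 53.91). The nearer downstream site lay 21531 bp from the start, in an intron of Dhx8 (37.81, Rad21 14.47). The strongest downstream site lay 52561 bp from the start (91.87, Rad21 59.07), 109 bp from the start of Dhx8. Brg1 at both starts was near the threshold, with 1.89 at 199 bp upstream of Etv4 and 1.89 at 1237 bp upstream of Etv5. In the upstream flank of Etv5, beyond 2 kb from its start, no summit of any of the 4 factors was listed.

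Fosl1, the AP-1 subunit Fra-1 (chr19:5447547-5455946, plus strand), had weak factors at its start and strong ones around it. Within 2 kb of the start, Brg1 had a value of 2.45, Arid1a 2.28, Ctcf 2.15 and Rad21 3.46. Its window held 6 Ctcf summits with a −log10 q of at least 20, between 28.45 and 81.32, the most of the set. Inside the gene, Arid1a (2.71) and Brg1 (2.12) had weak summits 4336 and 4419 bp downstream of the start, and a match of the AP-1 letters lay within 100 bp of both. The match is shown because AP-1 is the complex that Fosl1 joins, but AP-1 binding was not measured. It lies at chr19:5451915-5451961 on the plus strand of GRCm38, with the AP-1 letters in capitals.
Fosl1 intron: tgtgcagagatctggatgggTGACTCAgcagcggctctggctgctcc

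Myc (chr15:61985391-61990374, plus strand), which drives growth and cell division, had 7 factor summits within 2 kb of its start, as many as Spry2, and several were strong. There, Ctcf was 1941 bp upstream (56.77) and Rad21 1952 bp upstream (37.77), Brg1 lay 1394 bp upstream (7.56) and 409 bp downstream (5.2), and Arid1a 232 bp downstream (4.7). A value of 7.56 was reached by 0.518% of all Brg1 summits. Past the end of the gene, 6673 bp from the start, a Brg1 summit of 6.74 stood beside 2 matches of the searched AP-1 letters (TGACTCA and TGAATCA). An Arid1a summit lay at 5737 bp (4.7) and Rad21 at 6934 bp (7.9). This intergenic stretch is chr15:61991964-61992042, plus strand of GRCm38, with the AP-1 letters in capitals.
Myc downstream site: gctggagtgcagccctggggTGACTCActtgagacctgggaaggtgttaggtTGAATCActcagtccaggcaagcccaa

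The AP-1 letters searched, TGANTCA, take any middle base, so TGAATCA and TGATTCA count as matches. They were about as frequent at these sites as elsewhere, lower for Brg1 and higher for Arid1a than over the whole list by counts of a few summits. They lay within 100 bp of 7 of 111 Brg1 summits in the 10 windows (6.31%), against 7.39% of all Brg1 summits and 6.09% of the same positions moved by 2 kb. For Arid1a, 7 of 89 member summits had them (7.87%), against 6.55% of all and 6.19% of moved positions. Of the 14 Brg1 summits within 2 kb of the starts, 0 had AP-1 or ETS letters within 100 bp, while 4.45% and 4.88% of all Brg1 summits within 2 kb of a coding start had them. The E-box letters stood near 5 of the 111 Brg1 summits (4.5%, against 2.42% of all), and a single CArG box stood near a Brg1 summit, 22653 bp downstream of the Dusp6 start.

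The strong Ctcf sites mostly carried the core Ctcf consensus, a 12-letter pattern searched on both strands within 50 bp of the summit. At most 1 mismatch was found at 10 of the 16 member summits with a −log10 q of at least 20 (62.5%), against 56.2% of all such Ctcf summits. Of the 78 weaker member summits, 4 had it (5.13%), against 13.7% of all weaker ones and 1.54% of all Ctcf positions moved by 2 kb. The strongest sites of Myc, Dusp4, Dusp5 and Fosl1 and the upstream site of Etv4 matched without a mismatch, and the strongest of Spry1, Dusp6, Spry4 and Etv5 had no match within 2 mismatches. Examples of sites outside exons with at most 1 mismatch are printed, so their likeness to each other follows from that choice. Each has 52 bases on the strand of the match, with the matched letters in capitals. The positions in GRCm38 are chr15:61983411-61983462 (plus, Myc), chr8:34816323-34816374 (minus, Dusp4), chr19:53579094-53579145 (minus, Dusp5), chr11:101813422-101813473 (plus, Etv4) and chr14:105899011-105899062 (plus, Spry2, 1 mismatch).
Myc, 1941 bp upstream: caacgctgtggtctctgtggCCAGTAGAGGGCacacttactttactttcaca
Dusp4, intron: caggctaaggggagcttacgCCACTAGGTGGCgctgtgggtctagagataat
Dusp5, downstream: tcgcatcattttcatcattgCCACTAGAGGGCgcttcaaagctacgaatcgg
Etv4, upstream: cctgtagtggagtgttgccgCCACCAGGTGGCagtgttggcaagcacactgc
Spry2, upstream: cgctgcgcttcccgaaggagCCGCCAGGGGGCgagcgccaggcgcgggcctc

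Brg1 in these windows lay beside Rad21 more often than over all coding windows, and Rad21 lay beside Ctcf less often. Of 111 Brg1 summits, 64 had a Rad21 summit within 1 kb (57.7%, 95% Wilson interval 48.4 to 66.4), against 30.3% over the windows of all coding genes. Brg1 met Arid1a at 51 of 111 (45.9%, 37.0 to 55.2), against 30.1%. Rad21 met Ctcf at 65 of 159 (40.9%, 33.5 to 48.6), against 53.2%, but seen from Ctcf the share was not lower, since 59 of 94 Ctcf summits had Rad21 (62.8%, 52.7 to 71.9), against 56.0%. The order held away from coding starts, where 44 of 84 Brg1 summits had Rad21 (52.4%, 41.8 to 62.7, against 23.6%) and 45 of 131 Rad21 summits had Ctcf (34.4%, 26.8 to 42.8, against 52.1%), while 43 of 70 Ctcf summits had Rad21 (61.4%, 49.7 to 72.0, against 53.6%). Dusp6 gave 16 of 30 and Fosl1 15 of 26 Brg1 summits with Rad21, while Spry1 gave 0 of 4. Windows rich in 1 factor were rich in others, and the part of that in these shares was not tested.

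H3K9me3 was listed in all 10 windows (98.0% of coding windows), and 8 of the 10 genes had fewer summits in KO than in WT cells (64.0% of coding windows with any). WT and KO counts were 15 and 10 at Dusp4, 30 and 15 at Dusp5, 33 and 20 at Dusp6, 17 and 11 at Spry4, 13 and 5 at Etv4, 13 and 11 at Etv5, 19 and 5 at Fosl1, and 16 and 10 at Myc. Spry1 went the other way with 8 and 16, as did Spry2 with 1 and 4. With at least 6 summits over both genotypes, 9 genes could be read, and 3 of the 9 (Dusp5, Etv4 and Fosl1) had in KO at most 50% of the WT count, against 42.7% of coding windows. At Spry1 alone the KO count was at least 2 times the WT count (1 of 9, against 10.3%). Falls of that size were thus no more frequent than over all genes. Dusp4 had more summits in KO when summits at most 3 kb apart were merged, 7 in WT and 9 in KO.

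**Figure D3:**
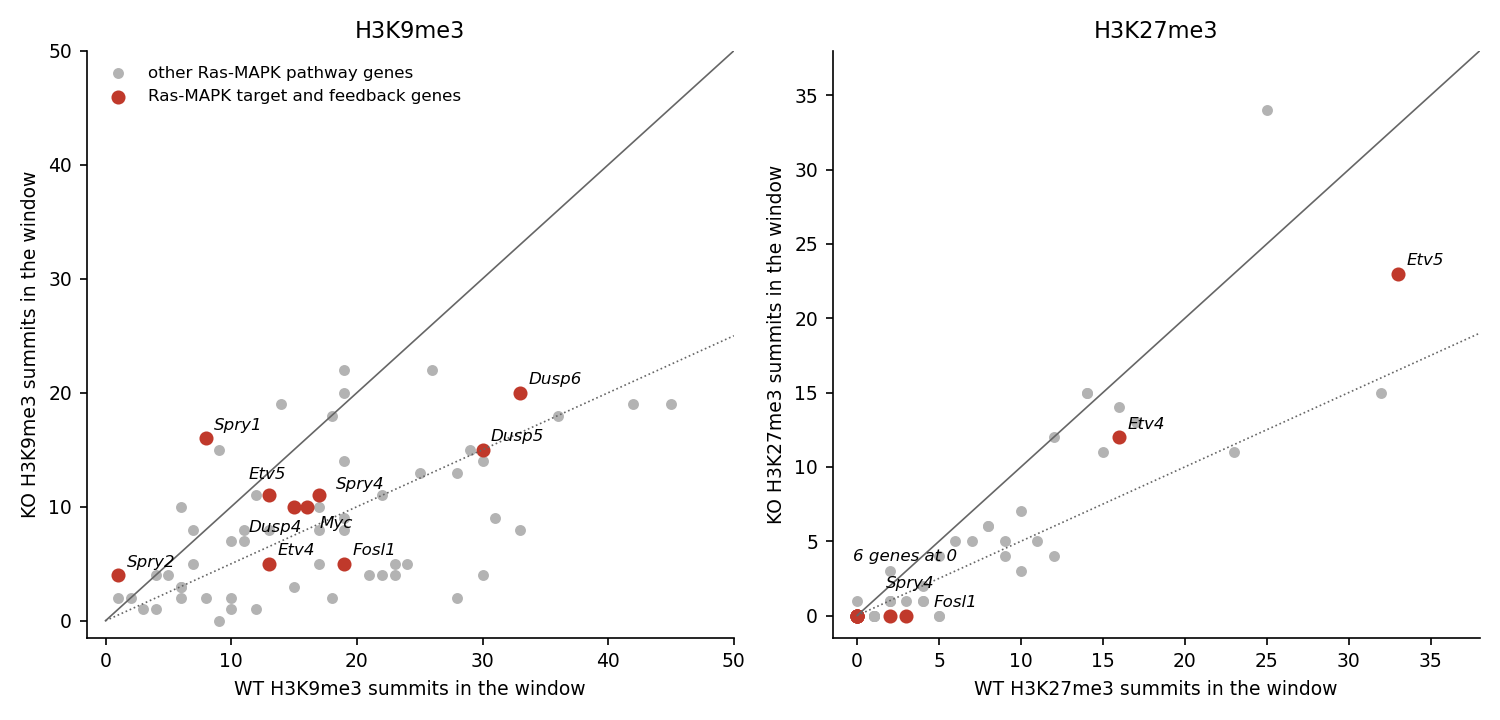
Each point is a gene, with the number of H3K9me3 (left) or H3K27me3 (right) summits of its window in WT cells on the horizontal and in KO cells on the vertical axis. The solid line marks equal counts and the dotted line a KO count of 50% of WT. Red points are the 10 genes, grey points are the other Ras-MAPK pathway genes, with Fgfr2 left out because its annotated body is far longer. Spry1 and Spry2 lie above the solid line for H3K9me3, and Fosl1 and Etv4 below the dotted one.

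The KO share of H3K9me3 summits was lower in the genes themselves than in their flanks. Over starts and bodies together, WT cells had 23 H3K9me3 summits and KO cells 4, a KO share of 14.8% (95% Wilson interval 5.92 to 32.5), against 40.3% over the starts and bodies of all coding genes. The balance of start and body was not matched between these sets, and in the members starts covered 40.0 kb and the rest of the bodies 122 kb. Over all coding genes, too, fewer starts had a KO summit (14.0%) than a WT one (38.7%). In the member flanks the counts were 142 and 103, a KO share of 42.0% (36.0 to 48.3). Over coding windows outside the start and body of any coding gene it was 48.5%. The member flanks do include other coding genes, as at Fosl1, so these flank shares do not cover like regions. Over the whole windows the share was 39.3% (33.7 to 45.3), against 43.9% over all coding windows and 48.4% in the complete lists. The 23 summits came from 7 genes other than Dusp5, Spry1 and Spry2, with 8 of them at Etv5, where 7 WT and 0 KO summits lay in the body.

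At the starts, 6 of 10 genes (Dusp4, Dusp6, Spry4, Etv5, Fosl1 and Myc) had a WT H3K9me3 summit within 2 kb (38.7% of coding genes) and 0 of 10 a KO summit (14.0%). The 6 of 10 with a WT but no KO summit compare with 31.4% of coding genes. The values were low, from 1.53 at Dusp6 to 4.15 at Fosl1, 722 bp upstream, which was the strongest WT H3K9me3 summit of that window. Starts with factors often had such summits in WT cells. Of the 3639 coding starts with all 4 factors, 68.1% had a WT and 14.8% a KO H3K9me3 summit. Over the 10 windows, 41 of 165 WT H3K9me3 summits (24.8%) had a Brg1 summit within 1 kb and 12 of 107 KO summits (11.2%), against 17.0% and 8.64% over all coding windows. The 6 of 10 is thus near what starts with these factors gave in this library, and what sets that level in the WT library was not tested.

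The strongest H3K9me3 sites of the set lay in flanks and were found in both genotypes at Dusp5. There, 55847 bp downstream of the start, WT had a summit of 8.48 and KO one of 5.7 at 55387 bp, and 4100 bp upstream WT had 7.08 and KO 5.23 at 4147 bp. At Dusp6 the highest WT value was 9.15, 22763 bp downstream, and the highest KO value 6.43, 23399 bp upstream. A KO summit lay within 1 kb of 13 of 33 WT summits at Dusp6 and 10 of 30 at Dusp5, but of 0 of 13 at Etv4. Over the 10 windows it did for 45 of 165 WT summits (27.3%, 21.1 to 34.5), against 28.0% over all coding windows. From the KO side, 45 of 107 had a WT partner (42.1%, against 35.6%).

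**Figure D4:**
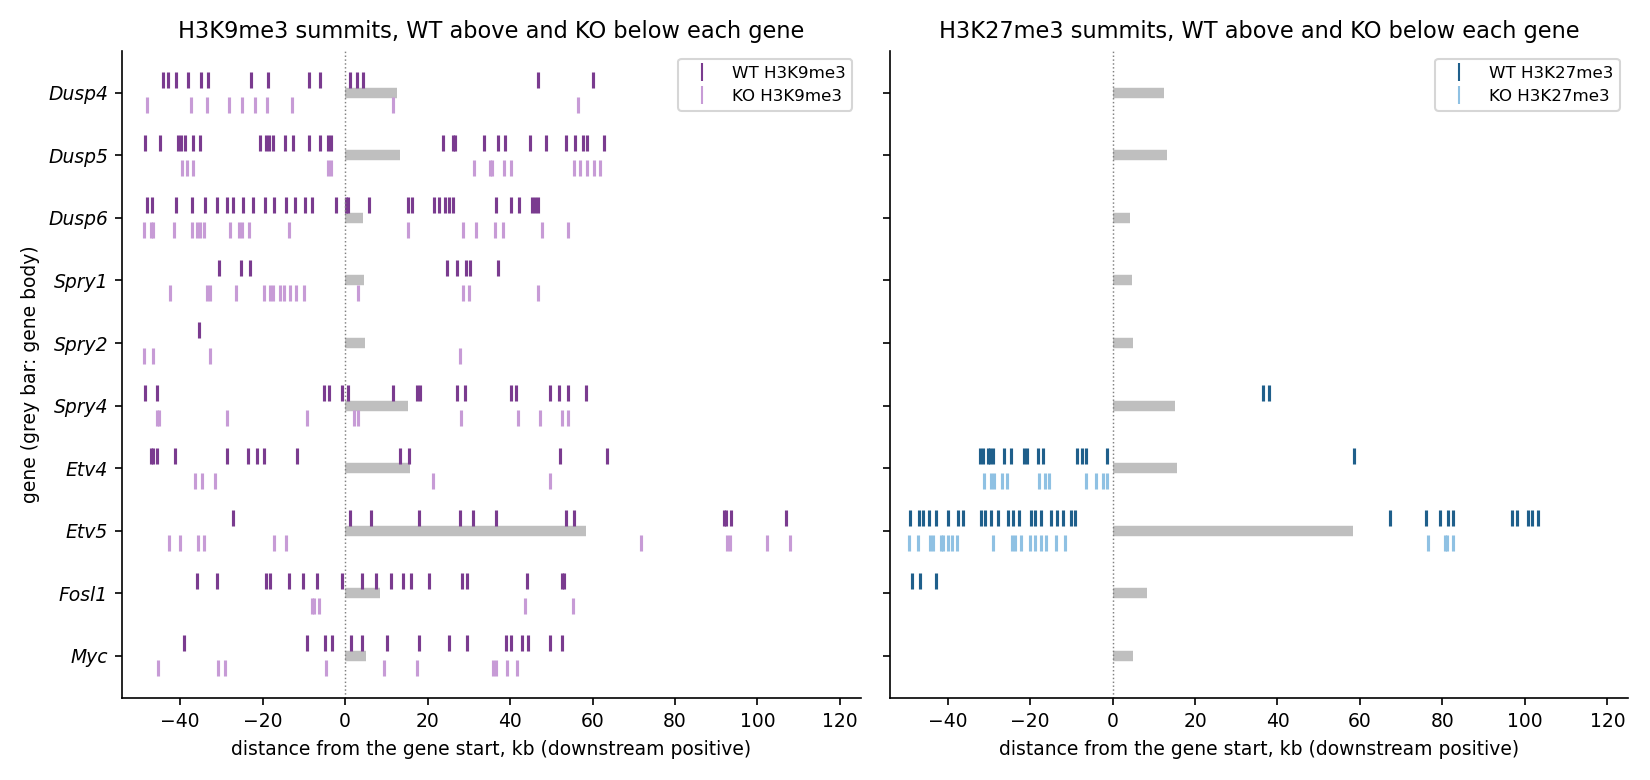
Ticks are H3K9me3 (left) and H3K27me3 (right) summits by distance in kb from the start of each gene, WT above and KO below the grey bar of the gene body. WT H3K9me3 ticks lie over the bodies of Etv5 and Dusp4 where KO has 0 and 1 (Etv5 7, Dusp4 2, outside the 2 kb about the start), and H3K27me3 ticks form runs upstream of Etv4 and on both sides of Etv5.

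H3K27me3 was listed near 4 of the 10 genes only, against 70.3% of coding windows, and chiefly at the ETS pair. Etv5 had 33 WT and 23 KO summits, Etv4 had 16 and 12, Fosl1 had 3 and 0, and Spry4 had 2 and 0. The 3 ERK phosphatases, Spry1, Spry2 and Myc had none in either genotype. All 4 of 4 genes with the mark had fewer summits in KO, as did 72.4% of coding windows with any, and neither of the 2 that could be read (Etv4 and Etv5) fell to 50% (0 of 2, against 25.7%) or rose to 2 times (0 of 2, against 2.48%). Within 20 kb of the gene, Etv4 had 6 WT and 7 KO summits, so its direction turned, while Etv5 had 10 and 7. The KO share of 35 of 89 summits was 39.3% (29.8 to 49.7), against 43.7% over all coding windows and 44.0% in the complete lists.

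At Etv4 the mark reached the start, and at Etv5 it stayed away from the gene. Etv4 had 1 summit within 2 kb of its start in each genotype, 1273 bp upstream in WT (4.7) and 1352 bp upstream in KO (4.72), which made 1 of 10 members in WT (23.4% of coding genes) and 1 of 10 in KO (19.8%). From there the run went on upstream with 14 WT and 11 KO summits, as far as 32174 bp in WT and 31132 bp in KO, past the strong Ctcf site at 28090 bp, and the Etv4 body had 0. Etv5 had 0 in its start region and body in both genotypes. Upstream it had 23 WT and 19 KO summits, the nearest 9203 and 11540 bp from the start, in the flank without factor summits and partly in introns of Dgkg. Downstream it had 10 WT and 4 KO summits. Of the 54 WT summits over all windows, 29 had a KO summit within 1 kb (53.7%, 40.6 to 66.3), close to the 54.7% over all coding windows, and of the 35 KO summits 80.0% had a WT one.

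The highest WT H3K27me3 value of the set was 6.97, 39938 bp upstream of Etv5. In the Etv5 window the highest KO value was 4.05, at 22203 and 43482 bp upstream. At Etv4 the highest values were 5.47 in WT, 24587 bp upstream, and 5.33 in KO, 6465 bp upstream. The Fosl1 summits were weak (1.5 to 2.05), lay at least 42754 bp upstream and were nearest to the start of Tsga10ip. Those of Spry4 were 2.84 and 1.78, at 36439 and 37857 bp downstream.

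Other genes of the pathway were read from 4 lists (receptors and adaptors, Ras and kinases, other inhibitors, and other ERK target genes), in which 54 of 55 symbols were found in GENCODE vM21. At the starts of the 54, Brg1 was listed for 41 (39.6% of coding genes), Arid1a for 35 (35.2%), Ctcf for 35 (42.5%) and Rad21 for 45 (50.6%), and all 4 factors for 25 (16.6%). The 12 other ERK target genes, such as the immediate early factors Egr1 and Fos, had Brg1 at 11 of 12 starts and Arid1a at 9 of 12, next to 10 of 10 and 9 of 10 members. All 4 factors met at 8 of these 12 starts, next to 9 of 10 members. The 13 other inhibitors found had Brg1 at 10 but Arid1a at only 6 and all 4 factors at 3. A WT H3K9me3 summit stood at 35 of the 54 starts (38.7% of coding genes) and a KO summit at 10 (14.0%).

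**Figure D5:**
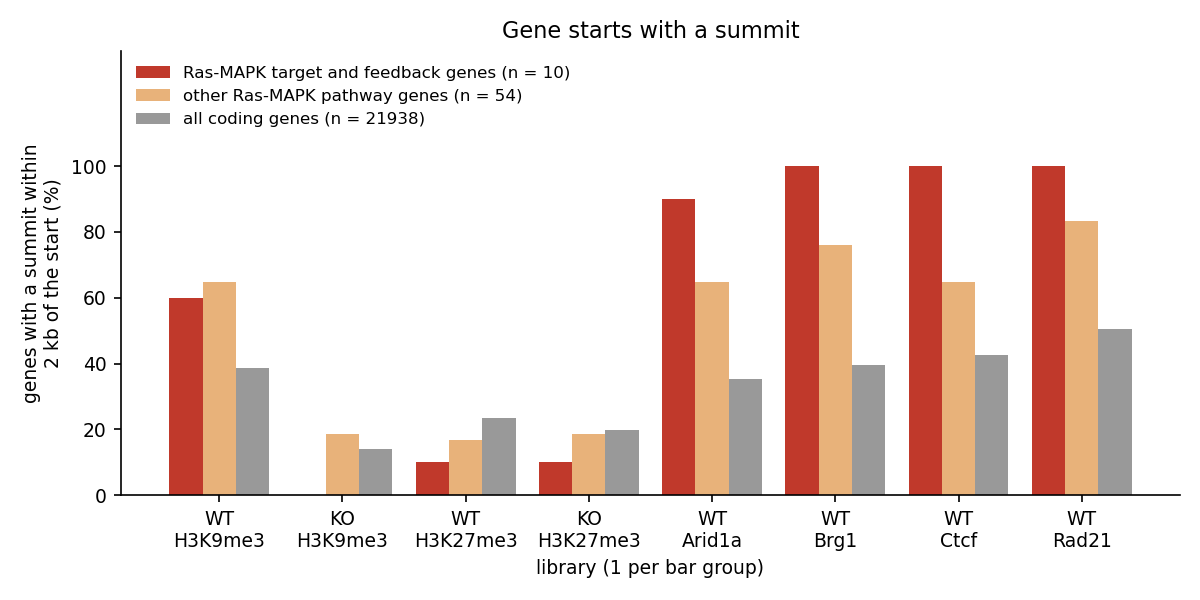
Bars give the percentage of genes with a summit within 2 kb of the start in each library, for the 10 Ras-MAPK target and feedback genes (red), 54 other pathway genes (orange) and all 21938 coding genes (grey). Factor bars fall from red to grey in each of the 4 factor libraries, and the red bar is at 0 for KO H3K9me3.

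In the windows of the other pathway genes, H3K9me3 in KO was at most 50% of WT at 29 of the 50 that could be read (42.7% of coding windows). It was at least 2 times WT at 0 of them (10.3% of coding windows). Of the 9 members, 3 and 1 did so. Map2k1, the gene of the kinase MEK1, had 28 WT and 2 KO H3K9me3 summits, and Egr1 had 12 and 1. H3K27me3 was listed near 38 of the 54, about the share of all coding windows (70.3%), and was at most 50% of WT in KO at 7 of 22 (25.7% of coding windows). The most WT H3K27me3 summits by name were at Fgfr2 (288 in WT, 195 in KO, over a long annotated body) and at the receptor Pdgfra (32 and 15). No WT summit was listed near 17 of the 54, among them Shc1, Sos2, Met, Nras and Map2k1, and near 6 of the 10 members. Hras, the gene whose activated form the cells carry as a transgene, had 4 WT and 1 KO H3K9me3 summits, and the transgene itself is not in mm10.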

How the data were processed

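The deposited lists give 1 summit of 1 bp per peak, with a −log10 q-value per summit (the unit was read from the values, which begin at 1.3). Per the study's methods, the authors aligned reads to mm10 with bowtie2, filtered them with SAMtools, dropped PCR duplicates (Picard) and used default MACS2 with the corresponding input to find peaks. Tool versions are not given in the sources used here, and the 2 input samples were not analysed here. A narrow-peak caller splits a broad mark into several summits, and a deeper library gives more of them. The autosomes (1 to 19), X and Y were kept, and summits were counted with numpy 2.4.6 and pandas 2.3.3 against GENCODE vM21 genes, by window, start (within 2 kb) and body. Summits at most 1 kb apart were partners, and shares have 95% Wilson intervals. With 1 library per group no test was run. Genes with at least 6 summits over both genotypes were read for a 2-fold difference. Motifs were searched in GRCm38 and RefSeq promoters. Counting was tested on simulated data. The named genes are the 10 members with the strongest summit of each list and the summits at their starts, and of the other pathway lists the 2 genes with the most and those with the fewest WT H3K27me3 summits. The Fosl1 intron and Myc downstream sites were singled out after their values were seen. The members and lists were chosen with earlier results of these data known. Window flanks, a strength minimum, merging, partner limits and start definitions were varied.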

Additional observations from a re-analysis of the deposited data

How the results depend on the processing

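Of 57 alternative values for 11 results, 37 kept their reading and 20 moved. A reversal was defined only for the 2 KO shares, as KO summits coming to outnumber WT ones, and 0 were seen. The other results could only be kept or moved, so they say nothing on reversal. Single genes did turn, as Dusp4 for H3K9me3 when summits were merged (7 in WT, 9 in KO). The 6 alternatives that took the strongest summits of each list, or left out Etv5, were chosen after seeing the data and moved nothing. With flanks of 20 kb, the KO share of H3K9me3 summits was 29.8%, a KO partner stood at 13.7% of WT H3K9me3 and 68.8% of WT H3K27me3 summits, Rad21 at 71.2% of Brg1 summits, and 1 gene, Etv5, had fewer H3K27me3 summits in KO, while Etv4 turned to more (6 in WT, 7 in KO) and Fosl1 and Spry4 had 0. With only summits of −log10 q of at least 3, these were 46.0% (KO share of H3K9me3), 16.7% and 40.0% (KO partners of WT H3K9me3 and H3K27me3), 31.0% (Arid1a at Brg1 summits), 2 genes with fewer H3K27me3 summits in KO and 5 genes with Brg1 at the start. With partners within 500 bp or 2000 bp, KO partners of WT H3K9me3 summits were 15.2% or 38.2%, Ctcf at Rad21 27.7% or 62.3%, Arid1a at Brg1 32.4% or 67.6% and Rad21 at Brg1 37.8% or 68.5%, and KO partners of WT H3K27me3 rose to 68.5% at 2000 bp. The cause of these moves was not tested, beyond the wider or narrower limit itself. No paired analysis was possible because each group had 1 library. With unknown depth, a summit that is not listed is not shown to be absent.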
